A study of Mus musculus with 15 samples.

Results

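WNT ligands were followed in mouse endometrial organoids in which SMAD2/3 signaling was left intact, blocked with a drug, removed genetically, or both. They were the rows of the expression matrix whose Ensembl gene identifier belongs to *Wnt4*, *Wnt5a*, *Wnt5b*, *Wnt6*, *Wnt7a*, *Wnt7b*, *Wnt9a*, *Wnt10a* or *Wnt11*. Of these 9 genes, 7 had a row among the 16729 genes of the matrix. *Wnt6* and *Wnt10a* had none and were not analysed here. Endometrial epithelium was taken from mouse uteri, grown in Matrigel as organoids and profiled by low-input RNA-seq in 15 samples. Control organoids carried floxed alleles (Smad2flox/flox; Smad3flox/flox) and were grown with DMSO (control + vehicle, n = 3) or with A83-01 at 500 nM (control + A83-01, n = 4). Organoids with the same floxed alleles and a Ltfcre/+ allele were likewise grown with DMSO (*Smad2/3* cKO + vehicle, n = 4) or A83-01 (*Smad2/3* cKO + A83-01, n = 4). A83-01 inhibits ALK4, ALK5 and ALK7, the type 1 receptors that phosphorylate SMAD2 and SMAD3. Cre was driven by the lactoferrin gene, which is active in the uterine epithelium, so control organoids lacked Cre and the floxed alleles were shared by all groups. All media also held conditioned WNT3a, R-spondin and Noggin medium, so every culture received WNT ligand from outside. Per the study's methods the mice were adults unless stated otherwise, and no separate age is stated for the organoid donors. The study also states that mice were kept on a mixed genetic background and were given estradiol at weaning to induce Cre.

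WNT ligands are secreted, lipid-modified proteins that bind Frizzled receptors together with LRP5 or LRP6 and stabilize β-catenin, or act through ROR2, RYK and PTK7 in β-catenin-independent signaling. In the mouse uterus *Wnt7a* is a classical product of the luminal epithelium, needed for the formation of glands. *Wnt4* is best known for its role in stromal decidualization, *Wnt5a* for its part in the patterning of the reproductive tract and *Wnt11* and *Wnt5a* as ligands of the β-catenin-independent branch. *Wnt7b* is the closest relative of *Wnt7a*, and *Wnt5b* of *Wnt5a*.

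Each sample held 20241771 to 24423127 normalized counts. Of the targeted genes, *Smad2* separated the genotypes without A83-01 but did not pass the test, and *Smad3* did neither. *Smad2* was at 1045 to 1335 in control + vehicle and at 821 to 924 in *Smad2/3* cKO + vehicle (log2 fold change −0.41, SE 0.14, adjusted p = 0.0656), and *Smad3* differed by −0.07 (SE 0.18, adjusted p = 0.827). With A83-01, *Smad2* ranges overlapped between genotypes (912 to 1062 in control, 804 to 1211 in *Smad2/3* cKO). A whole-gene count also takes up reads from the exons that remain after Cre recombination, so it does not check the deletion. Epithelial markers were high in every sample, but their level moved with the groups. The counts of 7 keratin and adhesion genes summed to 257551 to 329888 in control + vehicle, 167846 to 280504 in control + A83-01 and 133399 to 243778 in *Smad2/3* cKO + vehicle, without overlap in the last case. Of the 7, 0 passed the thresholds used below against control + vehicle, with *Krt19* (log2 fold change −1.85, adjusted p = 0.0118) and *Krt8* (−1.50, adjusted p = 0.0124) close to them in *Smad2/3* cKO + vehicle. The gland protease gene *Prss29* was listed at 0 in control + vehicle and rose both in control + A83-01 (16.3 to 322, adjusted p = 0.00469) and in *Smad2/3* cKO + vehicle (188 to 6403, adjusted p = 0.000988), while the other gland markers tested did not pass. The 8 stromal markers with a row had sums of 37.0 to 203 in control + vehicle. Among control + A83-01 samples the sums were 4.79 to 58.0, among *Smad2/3* cKO + vehicle samples 8.63 to 43.9 and 6.49 to 136 in *Smad2/3* cKO + A83-01. The smooth muscle gene *Acta2* was at 53.6 to 176 in control + vehicle and 10.8 to 29.5 in control + A83-01 (adjusted p = 0.0308). In *Smad2/3* cKO + vehicle it was at 4.74 to 21.0, a fall of 3.12 on the log2 scale (adjusted p = 0.00841). *Tagln*, the other smooth muscle gene tested, overlapped control + vehicle in both groups and did not pass. Its log2 fold change by limma was −0.45 in control + A83-01 (adjusted p = 0.725) and 0.44 in *Smad2/3* cKO + vehicle (adjusted p = 0.512).

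The 6 leukocyte markers with a row summed to 1315 to 2938 in control + vehicle and to 3407 to 8763 in control + A83-01, without overlap, and to 2117 to 8267 in *Smad2/3* cKO + vehicle. Most of each sum in control + vehicle and control + A83-01 was *Cd68*, a lysosomal protein gene. The pan-leukocyte gene *Ptprc* was at 12.5 to 38.5 in control + vehicle, 68.5 to 236 in control + A83-01 (log2 fold change 2.82, adjusted p = 0.0190) and 123 to 309 in *Smad2/3* cKO + vehicle, where it rose by 3.33 on the log2 scale (adjusted p = 0.00228). *Lyz2* had lower values with A83-01 (log2 fold change −2.72, adjusted p = 0.0223). The macrophage transcripts *Lyz2* (3372), *Adgre1* (351) and *C1qa* (155 normalized counts) set *Smad2/3* cKO + vehicle replicate 2 apart from the rest. In the other 14 samples *C1qa* was listed at 0, *Adgre1* reached 9.01 at most and *Lyz2* 86.9. *Csf1r*, also among the leukocyte markers, was present in every group. It was at 58.0 to 384 in control + vehicle and 149 to 473 in control + A83-01. Its values were 167 to 822 in *Smad2/3* cKO + vehicle and 193 to 468 in *Smad2/3* cKO + A83-01. The part of these marker shifts in the ligand differences below was not tested.

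For orientation, the bases just before the transcription start are shown for the 3 ligands with a RefSeq promoter around which the comparisons below turn: *Wnt9a*, which was lower without SMAD2/3 signaling, *Wnt5b*, which was higher, and *Wnt7a*, an abundant ligand. Each is 250 bases long, runs 5′ to 3′ on the strand of the gene and ends at the base before the start. Capitals mark 2 motifs, looked for on both strands: the SMAD-binding motif CAGAC and the AP-1 site TGANTCA.
Wnt9a (GRCm38.p6, chr11:59306680-59306929, plus strand): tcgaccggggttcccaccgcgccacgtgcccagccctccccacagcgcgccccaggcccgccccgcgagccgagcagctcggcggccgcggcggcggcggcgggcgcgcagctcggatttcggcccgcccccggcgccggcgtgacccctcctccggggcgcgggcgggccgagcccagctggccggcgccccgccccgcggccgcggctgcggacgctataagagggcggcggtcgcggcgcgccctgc
Wnt5b, first of 3 start sites (GRCm38.p6, chr6:119544348-119544597, minus strand): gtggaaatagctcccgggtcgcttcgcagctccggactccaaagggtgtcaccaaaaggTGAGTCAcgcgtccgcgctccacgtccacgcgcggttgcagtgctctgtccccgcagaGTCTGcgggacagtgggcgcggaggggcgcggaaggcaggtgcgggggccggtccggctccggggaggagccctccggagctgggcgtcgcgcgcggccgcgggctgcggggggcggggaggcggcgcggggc
Wnt7a (GRCm38.p6, chr6:91411354-91411603, minus strand): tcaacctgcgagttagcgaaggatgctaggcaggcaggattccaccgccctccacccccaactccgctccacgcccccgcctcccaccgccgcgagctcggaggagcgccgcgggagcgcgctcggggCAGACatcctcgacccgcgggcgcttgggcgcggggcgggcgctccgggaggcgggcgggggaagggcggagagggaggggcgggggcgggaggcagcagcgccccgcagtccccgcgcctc

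In this window *Wnt9a* held neither motif, *Wnt7a* held 1 CAGAC and the first *Wnt5b* start held 1 of each, the AP-1 site beginning 191 bases and the SMAD motif 133 bases before the start. CAGAC occurs in 42.2% and TGANTCA in 6.75% of the 32851 mouse promoters of the same length, so a single match is a common event for the first motif. GC content was 84.4% for *Wnt9a*, 75.2% for *Wnt5b* and 77.6% for *Wnt7a*. RefSeq gave promoters for 6 of the 9 ligands, and *Wnt5a*, *Wnt7b* and *Wnt10a* had no entry. Counts were summed over all transcripts of a gene, so the start site in use was not measured.

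Which ligands the organoids made themselves was asked first. Levels were compared between genes as normalized counts per kb of the longest coding transcript. *Wnt7b* was the most abundant ligand in control + vehicle, at 2006 ± 412 per kb (SD, n = 3). It was followed by *Wnt7a* at 581 ± 188 per kb and *Wnt5a* at 187 ± 17.4 per kb, and the ranges of these 3 ligands did not overlap. Lower levels were seen for *Wnt9a* (50.5 ± 12.4 per kb) and *Wnt4* (34.1 ± 7.09 per kb), whose ranges overlapped, so that their order is not resolved. *Wnt5b* was at 6.17 ± 3.59 per kb. *Wnt11* was at the detection limit, with normalized counts of 4.22, 3.37 and 0 in control + vehicle and of 2.89 at most in the other groups. It passed no filter on low values and no test was made for it.

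The mix of ligands changed with the group. Among the 13 WNT ligand genes with a row, *Wnt7b* made up 70.0% ± 1.38 of the summed per-kb level in control + vehicle (SD, n = 3), 65.0% ± 5.31 in control + A83-01, 48.8% ± 8.51 in *Smad2/3* cKO + vehicle and 45.7% ± 10.6 in *Smad2/3* cKO + A83-01 (each SD, n = 4). *Wnt5b* made up 0.237% ± 0.170, 4.49% ± 0.781, 11.6% ± 5.91 and 21.9% ± 14.7 of it in the same order. *Wnt9a* went from 1.75% ± 0.135 in control + vehicle to 0.340% ± 0.270, 0.913% ± 0.494 and 0.569% ± 0.379. A share depends on all other ligands, and *Wnt7b* weighs most. The summed level itself was 2176 to 3324 per kb in the 3 control + vehicle samples and 448 to 2063 per kb in the other 12. With all exons merged as the length the *Wnt7b* shares were 62.5% ± 1.65, 57.4% ± 5.85, 41.7% ± 7.85 and 38.9% ± 9.73. These sums and shares are descriptions, without a test.

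**Figure D1:**
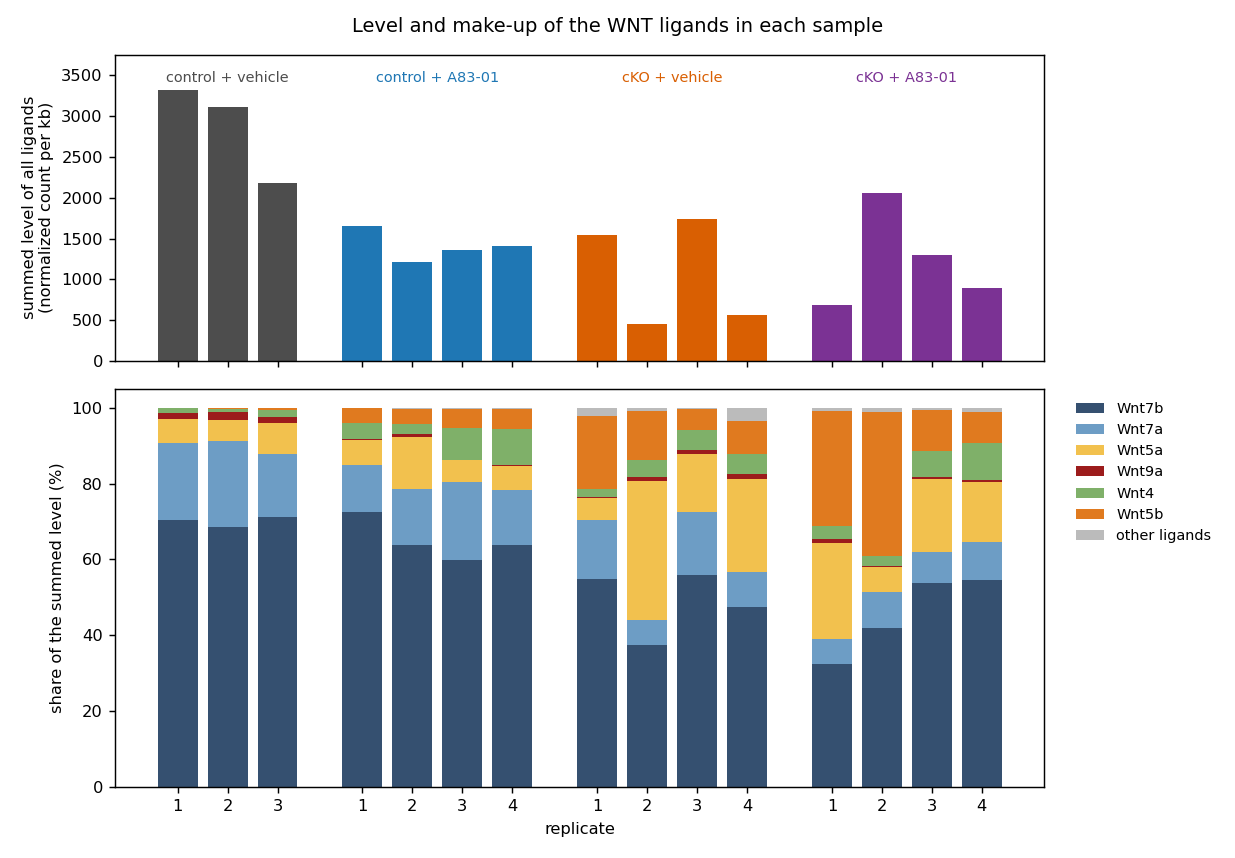
Summed level of the 13 WNT ligand genes in each sample (upper bars, normalized count per kb of transcript) and the share of each ligand in that sum (lower bars, percent), with replicates of each group side by side. *Wnt7b* is the largest share in all 15 samples at this length (the longest coding transcript), and the *Wnt5b* share is 0.401% at most in control + vehicle and reaches 38.2% in *Smad2/3* cKO + A83-01.

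In the *Smad2/3* cKO + vehicle samples the order of levels was less distinct. *Wnt7b* led with 563 ± 405 per kb (SD, n = 4), and it was followed by *Wnt5a* at 165 ± 75.4, *Wnt7a* at 154 ± 133 and *Wnt5b* at 126 ± 118 per kb. The ranges of these 4 ligands overlapped, and with all exons merged as the length *Wnt7a* ranked before *Wnt5a*. With that length *Wnt7b* was the largest share in 12 of 15 samples, and was exceeded by *Wnt5a* in *Smad2/3* cKO + vehicle replicate 2 and by *Wnt5b* in *Smad2/3* cKO + A83-01 replicates 1 and 2. Among the 7 followed ligands with a row, *Wnt4* at 44.0 ± 33.2 per kb and *Wnt9a* at 7.97 ± 5.41 per kb closed the list, with *Wnt11* listed at 0 in all 4 samples. *Wnt16*, which is not among them, made up 1.29% ± 1.33 of the summed level here, against 0.913% ± 0.494 for *Wnt9a* (each SD, n = 4).

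Inhibition of the type 1 receptors in control organoids, the question behind control + A83-01 against control + vehicle, changed 2 WNT ligands in opposite directions. *Wnt9a* fell to a low level and *Wnt5b* rose from one, while the abundant *Wnt7a* and *Wnt7b* had lower values in every treated sample without passing the thresholds. To pass, a gene needed an adjusted p under 0.01 together with a change of more than 1.4-fold in either direction. Of the 6 ligands tested, 1 was higher and 1 was lower, and these were *Wnt5b* and *Wnt9a*, where 1.19% and 1.08% of the 13009 genes tested were higher and lower. Values of the 2 groups did not overlap for 5 of the 6 ligands, compared with 21.7% of all genes tested.

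*Wnt9a*, a ligand that can signal through β-catenin, was at 185, 197 and 121 normalized counts in control + vehicle and at 15.2, 29.4, 5.68 and 10.5 in control + A83-01. The highest treated sample held less than the lowest vehicle sample by a wide margin. It fell by 3.57 on the log2 scale (SE 0.56, 95% confidence interval −4.83 to −2.31, adjusted p = 0.00711), an 11.8-fold lower level. *Wnt9a* (ENSMUSG00000000126) lies on chromosome 11 of GRCm38, positions 59306928 to 59333552, plus strand.

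*Wnt5b*, a ligand of the β-catenin-independent branch, was at 4.89, 18.3 and 20.7 normalized counts in control + vehicle and at 146, 113, 160 and 179 in control + A83-01. All 4 treated samples lay above all 3 vehicle samples and close to each other. It rose by 3.46 on the log2 scale (SE 0.51, 95% confidence interval 2.30 to 4.62, adjusted p = 0.00572) (11-fold). *Wnt5b* (ENSMUSG00000030170) lies on chromosome 6, positions 119432531 to 119544347, minus strand. Both calls stood close to the threshold. Leaving out any 1 of the 7 samples other than control + A83-01 replicate 2 raised the adjusted p of *Wnt9a* to between 0.0129 and 0.0495 and that of *Wnt5b* to between 0.0113 and 0.0233, with log2 fold changes of −3.78 to −3.21 and of 2.86 to 3.80. Without the filter on low values the adjusted p was 0.0212 for *Wnt9a* and 0.0186 for *Wnt5b*.

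*Wnt7b* was at 7967, 7234 and 5260.0 normalized counts in control + vehicle and at 4085, 2616, 2778 and 3059 in control + A83-01. The groups did not overlap. The log2 fold change was −1.12 (SE 0.21, 95% confidence interval −1.60 to −0.65), with an adjusted p of 0.0152 that missed the threshold. *Wnt7a* was at 2137, 2235 and 1155 in control + vehicle and at 658, 567, 887 and 653 in control + A83-01, again without overlap. Its log2 fold change was −1.37 (SE 0.26, adjusted p = 0.0174). The treated and untreated control organoids share 3 label numbers, and with these numbers as a block *Wnt7b* passed (adjusted p = 0.00688, range over 7 alternative settings 0.00524 to 0.204) whereas *Wnt5b* missed narrowly (adjusted p = 0.0104, range 0.00236 to 0.0186).

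*Wnt5a*, the ligand of ROR2, was at 1455, 1248 and 1239 normalized counts in control + vehicle and at 746, 1151, 538 and 609 in control + A83-01. The treated samples were all lower, control + A83-01 replicate 2 by little. The log2 fold change of −0.85 (SE 0.26, adjusted p = 0.0876) did not pass. *Wnt4* was at 157, 109 and 163 in control + vehicle and at 303, 139, 489 and 570.5 in control + A83-01, where replicate 2 fell within the vehicle range (log2 fold change 1.22, SE 0.47, adjusted p = 0.162). The stromal marker sums given above were lower with A83-01 as well, with some overlap, and their part in these differences was not tested. In such bulk samples fewer cells that make a transcript and less transcript per cell cannot be told apart.

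**Figure D2:**
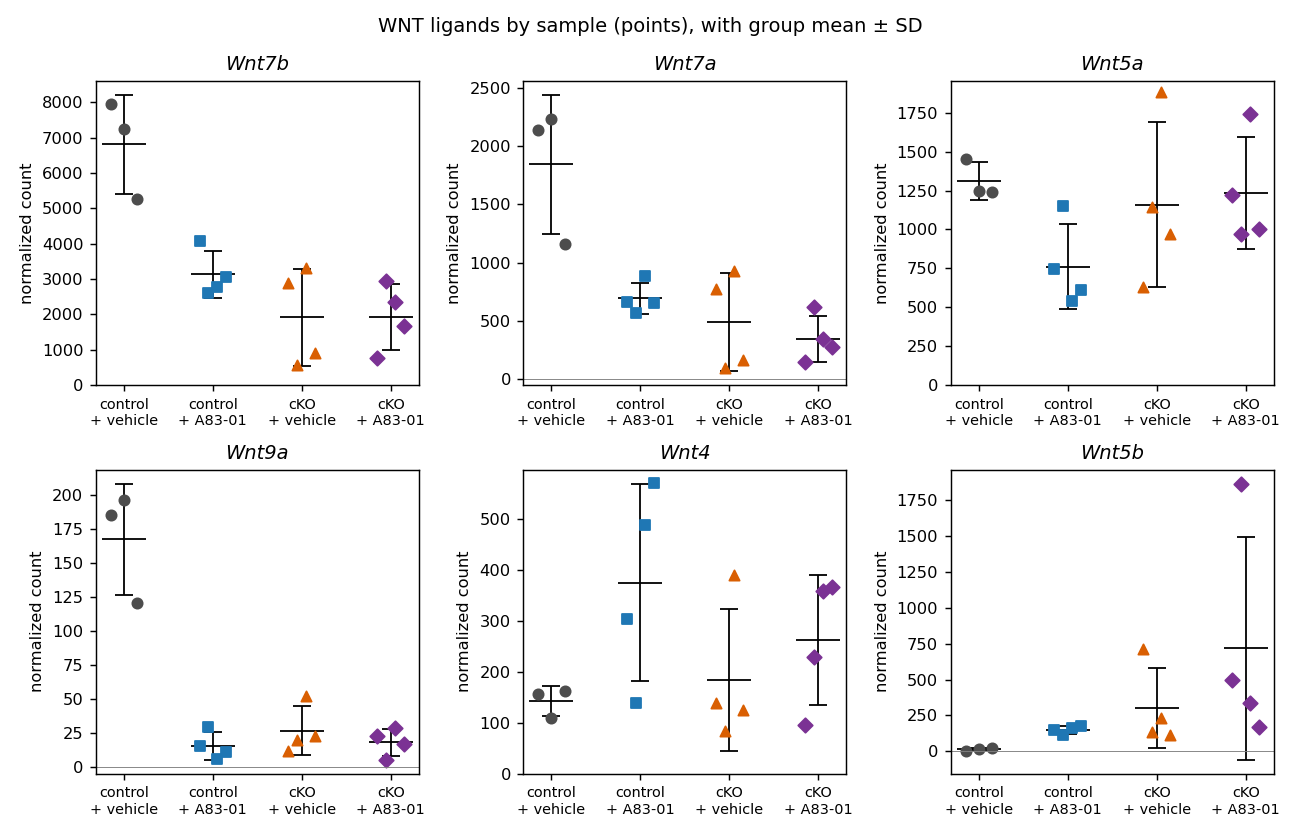
Normalized count of the 6 tested WNT ligands in each sample (points) with the mean and SD of each group (bars), on a linear axis for each gene. The 3 control + vehicle samples are the highest of all samples for *Wnt7b*, *Wnt7a* and *Wnt9a* and the lowest for *Wnt5b*.

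Deletion of *Smad2* and *Smad3*, compared as *Smad2/3* cKO + vehicle against control + vehicle, changed *Wnt9a* and *Wnt5b* as well. The control + vehicle samples are the same as in the comparison above, so the comparisons are not independent of each other. Of 6 ligands tested, 1 was higher (*Wnt5b*) and 1 was lower (*Wnt9a*), next to 4.08% and 3.3% of the 13149 genes tested. Values did not overlap for 4 of the 6 ligands and for 30.8% of all genes tested.

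*Wnt5b* was at 711, 135, 235 and 117 normalized counts in the *Smad2/3* cKO + vehicle samples. Each was above the highest control + vehicle sample (20.7), and replicate 1 stood well above the others. It rose by 4.08 on the log2 scale (SE 0.70, 95% confidence interval 2.50 to 5.65, adjusted p = 0.00517), 16.9-fold. *Wnt9a* was at 11.2, 19.5, 52.4 and 22.8, below all control + vehicle samples, and fell by 2.80 on the log2 scale (SE 0.51, 95% confidence interval −3.96 to −1.64, adjusted p = 0.00670), a 6.95-fold lower level. The call of *Wnt9a* was lost (adjusted p 0.0124 to 0.0361) without any 1 of the 7 samples other than *Smad2/3* cKO + vehicle replicate 3. That of *Wnt5b* was lost without control + vehicle replicate 1 (adjusted p = 0.0220), control + vehicle replicate 2 (adjusted p = 0.0183) or *Smad2/3* cKO + vehicle replicate 3 (adjusted p = 0.0109). Without the filter on low values the adjusted p was 0.0125 for *Wnt9a* and 0.010 for *Wnt5b*.

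*Wnt7b* was at 2877, 568, 3308 and 908 normalized counts and *Wnt7a* at 769, 95.7, 925 and 161 in *Smad2/3* cKO + vehicle. Both ligands were intermediate in replicates 1 and 3 and low in replicates 2 and 4, and no sample reached the control + vehicle range. The log2 fold changes were −2.17 for *Wnt7b* (SE 0.57, adjusted p = 0.0285) and −2.44 for *Wnt7a* (SE 0.75, adjusted p = 0.050), and neither passed. Replicate 2 is the library with high *Lyz2*, *Adgre1* and *C1qa*. Without it the log2 fold changes were −1.71 for *Wnt7b* (adjusted p = 0.0374) and −1.86 for *Wnt7a* (adjusted p = 0.0775), and the other 3 samples still lay below all control + vehicle samples.

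*Wnt5a* at 633, 1147, 1884 and 972 normalized counts and *Wnt4* at 139, 84.1, 391 and 125 in *Smad2/3* cKO + vehicle overlapped with control + vehicle. Their log2 fold changes were −0.29 (95% confidence interval −0.99 to 0.41, adjusted p = 0.554) and 0.13 (95% confidence interval −0.95 to 1.21, adjusted p = 0.873). These intervals leave room for changes of about 1 on the log2 scale in *Wnt4* in either direction.

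**Figure D3:**
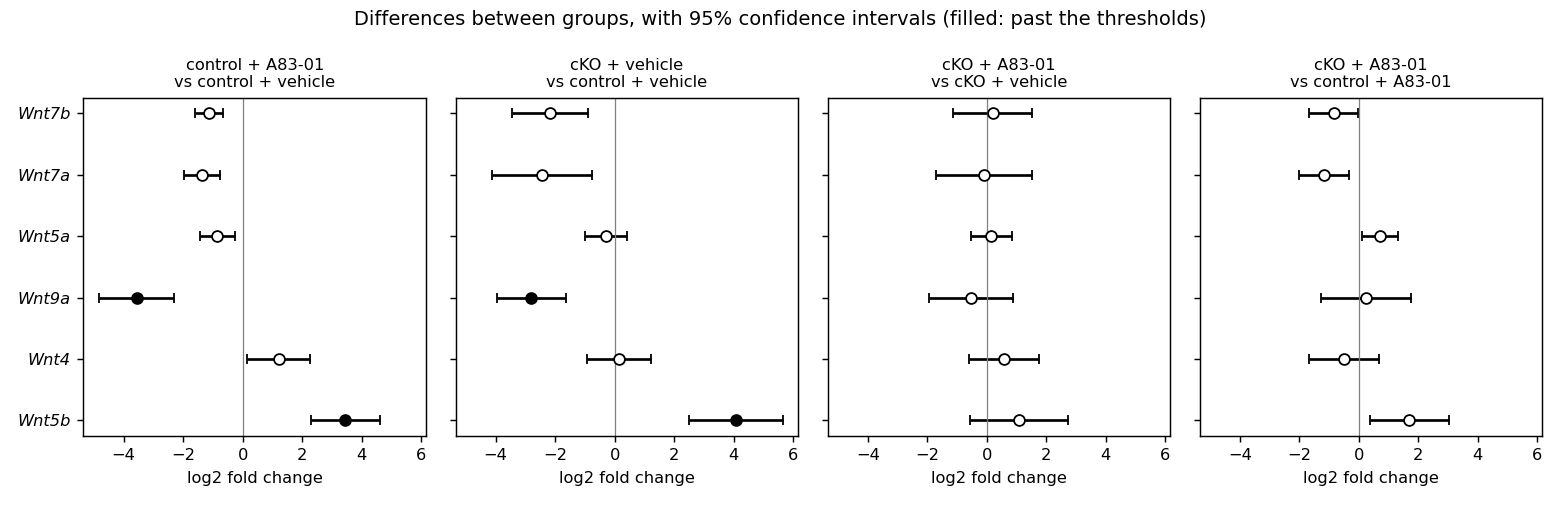
Log2 fold change of the 6 tested WNT ligands in 4 comparisons (horizontal axis, points) with 95% confidence intervals from limma (bars), filled where the thresholds were passed. *Wnt9a* and *Wnt5b* are filled in both comparisons with control + vehicle, and no ligand is filled in the other comparisons.

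Whether the inhibitor acts on organoids that lack *Smad2* and *Smad3* was addressed with *Smad2/3* cKO + A83-01 against *Smad2/3* cKO + vehicle. No WNT ligand passed the thresholds. Of 6 tested, 0 were higher and 0 lower by limma, as for 0% of the 12998 genes in each direction, and 0 had an unadjusted p below 0.05, next to 4.26% of all genes. Values of all 6 ligands overlapped between the groups, while 2.9% of all genes did not.

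*Wnt5b* was at 497, 1866, 337 and 170 normalized counts with A83-01 in *Smad2/3* cKO organoids, where replicate 2 was the highest *Wnt5b* value of the series. The log2 fold change against *Smad2/3* cKO + vehicle was 1.08 with a 95% confidence interval of −0.57 to 2.73. *Wnt9a* remained low at 22.6, 5.13, 28.3 and 16.4 (log2 fold change −0.53, 95% confidence interval −1.95 to 0.89). For *Wnt7b*, counts of 757, 2941, 2361 and 1662 gave 0.21 (95% confidence interval −1.12 to 1.53), and for *Wnt7a* counts of 145, 617, 340.3 and 278 gave −0.09 (95% confidence interval −1.71 to 1.53). *Wnt5a* at 1222, 969.7, 1744 and 999.6 and *Wnt4* at 96.5, 230.0, 358 and 366 likewise lay within the range of *Smad2/3* cKO + vehicle. The intervals are wide, and apart from that of *Wnt5a* (−0.53 to 0.85) each included a change of 1 on the log2 scale in either or both directions.

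With A83-01 present in both genotypes (*Smad2/3* cKO + A83-01 against control + A83-01), 0 of 6 ligands were higher and 0 lower, next to 0.0232% and 0% of the 12915 genes tested. Values overlapped for all 6 ligands, whereas 6.12% of all genes did not overlap. The unadjusted p was below 0.05 for 4 of the 6 ligands and for 9.52% of all genes. These were *Wnt5b* (log2 fold change 1.70, SE 0.60, adjusted p = 0.392), *Wnt7a* (−1.17, SE 0.38, adjusted p = 0.349), *Wnt7b* (−0.84, SE 0.37, adjusted p = 0.519) and *Wnt5a* (0.72, SE 0.27, adjusted p = 0.426).

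The difference of the A83-01 effect between genotypes was tested as a contrast over all 15 samples. In this contrast 0 of 6 ligands were higher and 0 lower, next to 0.0995% and 0.452% of the 13066 genes tested, and 3 of the 6 ligands and 14.3% of all genes had an unadjusted p below 0.05. The effect on *Wnt9a* differed by 3.04 on the log2 scale (SE 0.87, adjusted p = 0.108), that on *Wnt5b* by −2.38 (SE 1.00, adjusted p = 0.282) and that on *Wnt5a* by 1.01 (SE 0.44, adjusted p = 0.311). That A83-01 changed *Wnt9a* and *Wnt5b* in control but not in *Smad2/3* cKO organoids is therefore not shown to differ between the genotypes at the threshold used.

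The ligands also varied among themselves from sample to sample. *Wnt7a* and *Wnt7b* moved together, with Pearson's r of 0.975 across the 15 samples on the log2 scale and of 0.952 after removal of the group means. No 31-base word of any transcript of the 7 ligands occurred in another WNT ligand compared, so reads of that length were not shared between them. *Wnt1*, *Wnt2*, *Wnt8a* and *Wnt8b* were left out of that search. The per-length ratio of *Wnt7b* to *Wnt7a* was 2.92 to 6.47 over samples in which *Wnt7a* itself ranged from 95.7 to 2235 normalized counts. The lowest values of both ligands in *Smad2/3* cKO + vehicle and in *Smad2/3* cKO + A83-01 belonged to 2 samples with the same label number, which the labels give to replicate 2 of the former and replicate 1 of the latter. High *Lyz2*, *Adgre1* and *C1qa* were found only in the vehicle sample of that number. In the other sample *C1qa* was listed at 0 and *Lyz2* was at 8.73.

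*Wnt5a* and *Wnt9a* had an r of 0.865 after removal of the group means, with *Smad2/3* cKO + vehicle replicate 3 and *Smad2/3* cKO + A83-01 replicate 3 highest of their groups for both. *Wnt5b* and *Wnt9a* had an r of −0.825 across all samples and of −0.554 with group means removed. These are descriptions over 15 samples that share 4 groups and 1 normalization. The genes most similar to *Wnt9a* across the samples, of 13066, were *Grb10*, an adaptor of insulin receptor signaling (r = 0.941), *Nat8l*, which makes N-acetylaspartate (r = 0.939), and the Frizzled receptor *Fzd8* (r = 0.921). Those most similar to *Wnt5b* were the amino acid transporters *Slc7a5* (r = 0.947) and *Slc7a9* (r = 0.939) and the potassium channel *Kcnk5* (r = 0.939).

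**Figure D4:**
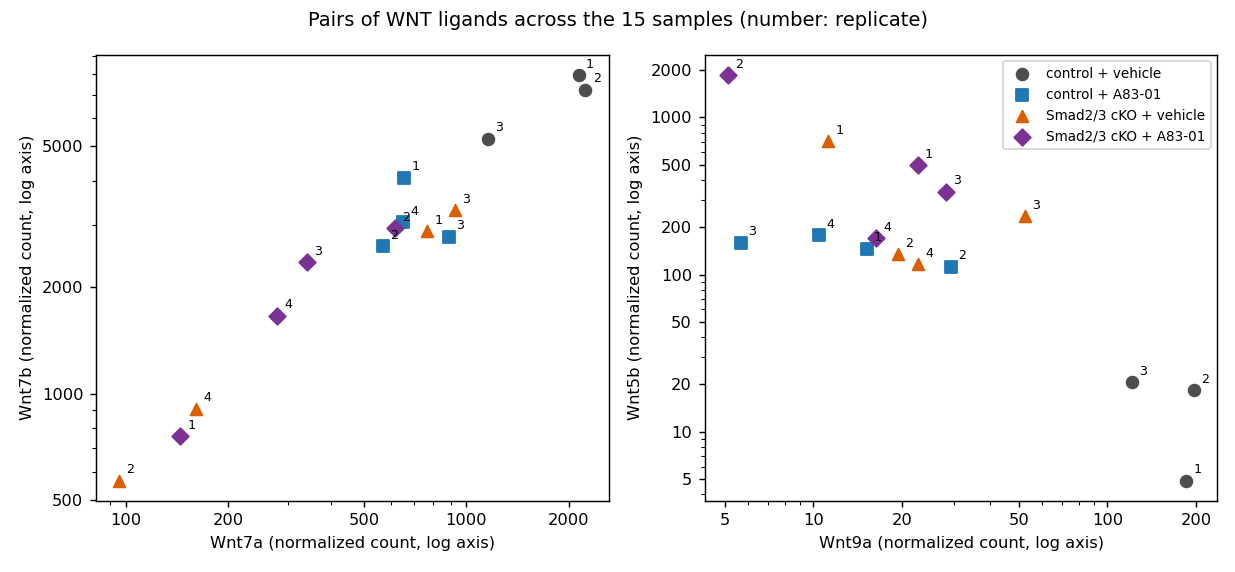
Normalized counts of *Wnt7b* against *Wnt7a* (left) and of *Wnt5b* against *Wnt9a* (right) in the 15 samples, both axes logarithmic, numbers giving the replicate. *Wnt7a* and *Wnt7b* lie along one line from *Smad2/3* cKO + vehicle replicate 2 to the control + vehicle samples, and for *Wnt9a* and *Wnt5b* the 3 control + vehicle samples lie apart from the other 12.

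Of the other 10 mouse WNT ligand genes, 6 had a row and all were low. *Wnt2b*, *Wnt3*, *Wnt3a* and *Wnt10b* stayed at 5.71 normalized counts or less in every sample, so transcripts of the gene for the WNT3a supplied by the medium were near the detection limit in the organoids themselves. *Wnt16* was at 0, 2.66 and 2.56 in control + vehicle and at 78.8, 7.43, 3.27 and 56.3 in *Smad2/3* cKO + vehicle, above all control + vehicle samples but with a large spread (adjusted p = 0.0944). *Wnt9b* was listed at 0 in control + vehicle and reached 33.0 in *Smad2/3* cKO + A83-01. *Wnt1*, *Wnt2*, *Wnt8a* and *Wnt8b* were not analysed here.

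Genes that act with the ligands were counted from lists of WNT pathway genes, beside the background shares given above. The 6 secretion genes, which acylate WNT proteins and carry them to the surface, passed in 0 cases in any comparison. The WNT carrier *Wls* was at 7595, 8185 and 6776 normalized counts in control + vehicle, at 4214, 4647, 3818 and 3140 in control + A83-01 and at 3326, 4908, 4678 and 3068 in *Smad2/3* cKO + vehicle. Neither group overlapped control + vehicle, and its log2 fold changes of −0.94 (adjusted p = 0.0139) and −0.94 (adjusted p = 0.0101) missed the threshold. Of the R-spondins and their receptors, 6 were tested and 0 passed in any comparison. Of the secreted antagonists 4 were tested against control + vehicle and 0 passed. Their median log2 fold change was −2.17 in control + A83-01 and −2.46 in *Smad2/3* cKO + vehicle. The lowest adjusted p by limma was 0.0759 (*Dkk2*) and 0.0619 (*Igfbp4*).

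All receptors past the thresholds were lower. Of 13 receptors and co-receptors tested with A83-01 in control organoids, 4 were lower and 0 higher, with a median log2 fold change of −0.92 against −0.02 over all genes. Of 14 tested in *Smad2/3* cKO + vehicle, 3 were lower and 0 higher, with a median of −1.06 against 0.00. *Ror2*, the receptor of WNT5A, was at 197, 354 and 393.1 normalized counts in control + vehicle and at 1.25, 2.26, 5.84 and 20.5 in control + A83-01 (log2 fold change −5.72, SE 0.77, adjusted p = 0.00384). In *Smad2/3* cKO + vehicle it was at 4.74, 24.7, 48.8 and 26.9 (log2 fold change −3.83, SE 0.68, adjusted p = 0.00584). *Fzd10* fell by 3.53 with A83-01 (SE 0.47, adjusted p = 0.00350) and by 4.77 in *Smad2/3* cKO + vehicle (SE 0.71, adjusted p = 0.00300) on the log2 scale. The pseudokinase co-receptor *Ptk7* fell by 0.92 and by 1.31 on the same scale, and *Fzd3* was past the thresholds only in the first of the comparisons, a difference between comparisons that was not tested.

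Downstream, the cascade list of 17 tested genes held 1 lower gene with A83-01, the repressor *Tcf7l1*, and 3 in *Smad2/3* cKO + vehicle (*Tcf7l1*, *Tcf7* and the kinase *Csnk1e*). Of 7 tested β-catenin target genes, the receptor gene *Tnfrsf19* was higher in both, at 759 ± 210 in control + vehicle (SD, n = 3), 2763 ± 516 in control + A83-01 and 3864 ± 402 in *Smad2/3* cKO + vehicle (each SD, n = 4). *Myc* was lower in *Smad2/3* cKO + vehicle (log2 fold change −0.81, SE 0.15, adjusted p = 0.00675). *Axin2*, the common reporter of β-catenin activity, stayed at 24.3 normalized counts or less in all samples and did not reach the mean of 10 needed for a test in any comparison. Of the 9 tested planar cell polarity genes, *Vangl2* was lower in *Smad2/3* cKO + vehicle. In the comparisons within *Smad2/3* cKO organoids and between genotypes with A83-01, 0 genes of these WNT lists passed, and in the contrast of A83-01 effects *Tnfrsf19* alone did (−1.97, SE 0.25, adjusted p = 0.000863).

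**Figure D5:**
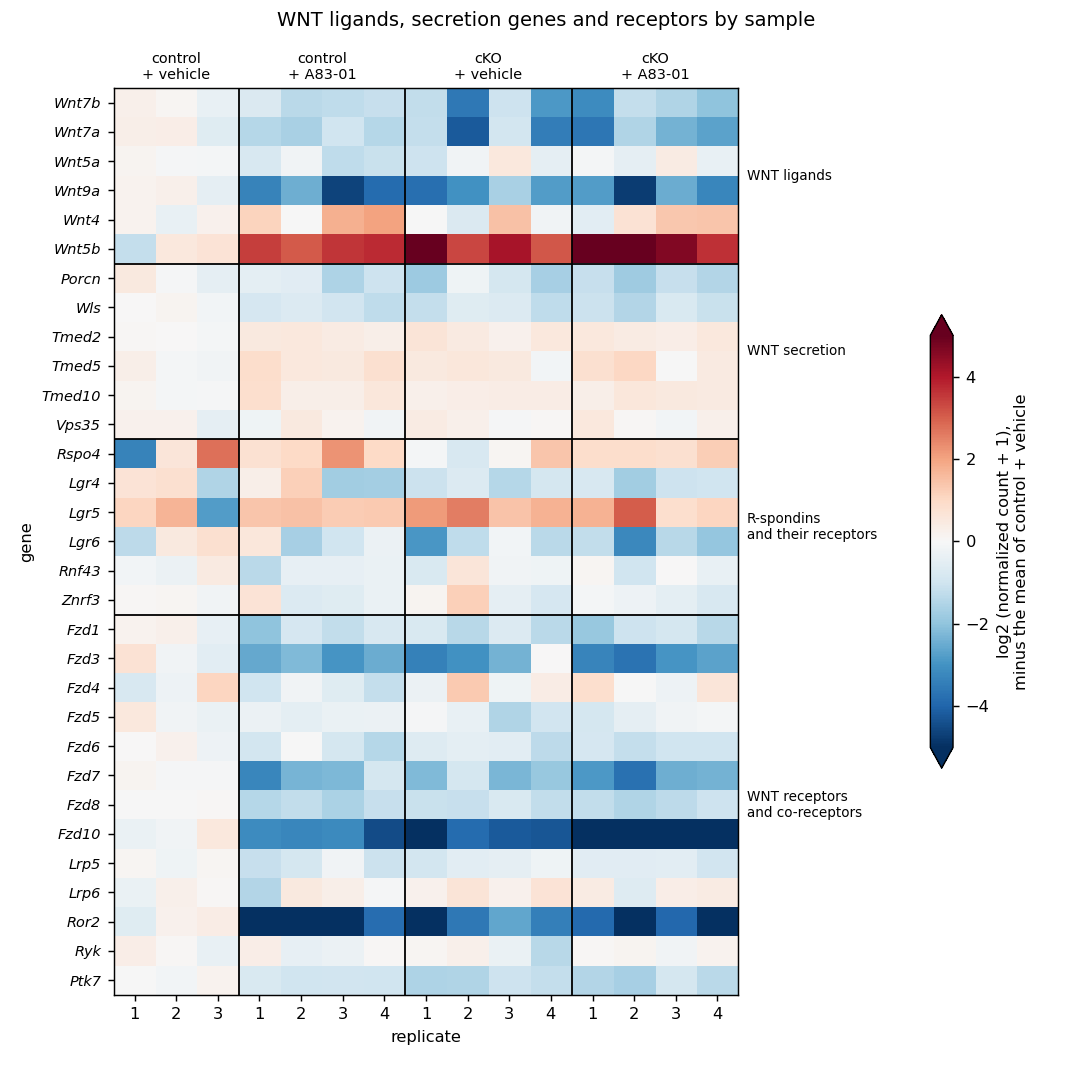
Each cell shows 1 sample (columns, replicates within the 4 groups) and 1 gene (rows) as log2 of the normalized count plus 1, less the mean of control + vehicle; colours end at differences of 5. *Wnt9a*, *Fzd10* and *Ror2* are blue and *Wnt5b* is red in all 12 samples outside control + vehicle.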

How the data were processed

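RNA of endometrial organoids was amplified with an ultra-low-input kit and sequenced. The submitters' processing notes list Salmon 1.4.0, DESeq2 1.32.0 and GRCm39. The deposited values are a signal: estimated counts per gene that the authors divided by 1 DESeq2 size factor per sample. They hold amplified reads without molecular identifiers, and whole reads could not be recovered, so no count model was used. Their total was 20241771 to 24423127 per sample, which limits the precision of genes with few counts, for which 3 counts was taken as the floor. Ensembl identifiers were matched to symbols (16697 of 16729 genes). Gene positions are those of GENCODE on GRCm38 and promoters those of RefSeq on GRCm38.p6.

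For each comparison the samples of the 2 groups were modelled alone, using limma 3.58.1 (lmFit, eBayes with trend) in R 4.3.3, on log2 of the normalized count plus 1, for genes with a mean of at least 10. Fold changes are on that scale and understate changes of low genes. P-values were adjusted by Benjamini-Hochberg over all genes tested, and a gene passed at an adjusted p under 0.01 with a change of more than 1.4-fold in either direction. The difference of A83-01 effects was a contrast over all 15 samples. The procedure was tested on simulated data. Alternatives were pseudocounts of 0.1 and 10, no filter, quantile normalization, all 4 groups in the fit, the replicate number as a block, the label number series (below 390 or not) as a covariate, and each sample left out in turn. All *Smad2/3* cKO + A83-01 samples have label numbers below 390, whereas the other groups hold numbers on both sides. The length over all exons was added after the data were seen. All 9 ligands and the other WNT ligands were named, list members where past the thresholds, and for ligands past the thresholds the 3 most correlated genes. *Wls*, *Axin2* and the epithelial, gland, muscle and leukocyte markers were named after their values were seen. Members and lists were chosen with earlier results of these data known.

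The replicate numbers pair the samples of the control groups, where same-numbered samples share a label number and their deviations from the group means correlated at 0.354 to 0.423 (mean of other pairs −0.133). They do not pair the *Smad2/3* cKO samples. The protocol in the labels speaks of 4 mice per genotype, whereas the samples carry 4 label numbers in control and 7 in *Smad2/3* cKO, with 1 number in both. What a number marks is not stated, so p-values measure the spread between these samples.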

Additional observations from a re-analysis of the deposited data

Results flagged for a closer look

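In control + A83-01, *Wnt11* was at 2.65 normalized counts in replicate 4 and listed at 0 in the other 3 samples, a gap that spans the whole range of the group. The value lies under the floor of 3 counts. Of 20 combinations of ligand and group checked for a sample far from the others this was the only one, and chance gives about 1 in 20.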

How the results depend on the processing

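The calls of *Wnt5b* and *Wnt9a* kept their direction under all alternatives run but not always their side of the threshold. With A83-01 in control organoids 2 ligands were past the thresholds, against 0 without the filter on low values and 0 to 2 when a sample was left out. These counts take in any ligand that passed. With a sample left out the adjusted p of *Wnt7a* and *Wnt7b*, which missed the threshold in the main fit, reached 0.00861 and 0.00863 at lowest. For *Smad2/3* cKO + vehicle against control + vehicle, 2 became 0 without the filter, 0 with the replicate block and 0 to 1 when a sample was left out. In the other comparisons 0 ligands passed under every alternative run. All-gene counts moved more. With A83-01 in control organoids 295 genes passed, against 146 without the filter, 655 with all 4 groups in the fit, 443 with the label number series and 49 to 312 with a sample left out. For *Smad2/3* cKO + vehicle against control + vehicle 970 passed, against 211 with the replicate block and 280 to 992 with a sample left out. Between genotypes with A83-01 present 3 passed, against 0 without the filter, 5 with all 4 groups, 0 with the replicate block, 72 with the label number series and 0 to 4 with a sample left out. That series is not balanced between these groups, because all *Smad2/3* cKO + A83-01 samples lie below 390 in it. The contrast of A83-01 effects gave 72, and 39 to 77 with a sample left out.

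Leaving out a sample lowers the number of samples. The cause of the other shifts was not tested. The replicate block rests on shared label numbers only in the control groups, where it left the counts at 2 ligands (*Wnt7b* in place of *Wnt5b*) and 399 genes. Samples of the *Smad2/3* cKO groups with the same replicate number correlated at −0.166 to 0.375. In these groups the block thus pairs samples by replicate number and not by label number. The pair that does share a label number, *Smad2/3* cKO + vehicle replicate 2 and *Smad2/3* cKO + A83-01 replicate 1, correlated at 0.355. No fit took that pair into account.

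Signs turned only for values that did not pass. With the label number series, *Wnt7a* (0.16) and *Wnt9a* (0.059) turned for A83-01 in *Smad2/3* cKO organoids, *Wnt4* (0.18) and *Wnt9a* (−0.43) turned between genotypes with A83-01, and *Wnt4* (0.014) turned in the contrast. In the fits of single comparisons this covariate sets the *Smad2/3* cKO + A83-01 samples against only those samples of the other group below 390. When a sample was left out, *Wnt4* ranged from −0.31 to 0.42 for *Smad2/3* cKO + vehicle against control + vehicle. For A83-01 in *Smad2/3* cKO organoids *Wnt5a* ranged from −0.10 to 0.43, *Wnt7a* from −0.68 to 0.41 and *Wnt7b* from −0.26 to 0.60. Between genotypes with A83-01, *Wnt9a* ranged from −0.11 to 0.72.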
